A study of Saccharomyces cerevisiae with 49 samples.

Results

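The SUN and PIR genes of budding yeast encode secreted proteins of the cell wall. The 8 genes described here were chosen by family name among the 6228 features of the arrays, with earlier results of these data known: SIM1, SUN4, UTH1 and NCA3 of the SUN family, and PIR1, PIR3, HSP150 and CIS3 of the PIR family. Each is read by 1 probe. Because the genes were selected on results of these arrays, their levels, amplitudes and calls are given as a description, beside the share of all features called in the same fit, and no p-value is given for single members.

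SUN proteins share a conserved carboxy-terminal domain and are found in the wall or in the medium; the family is linked to wall remodelling and to the separation of mother and daughter cells. SIM1 with SUN4, and UTH1 with NCA3, are pairs of paralogues that date from the whole-genome duplication of yeast. PIR proteins carry internal repeats, through which they are bound covalently to the beta-glucan of the wall. Several wall protein genes are transcribed in a narrow part of the cell cycle.

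Messenger RNA was compared on 49 arrays of 2 colours, each setting synchronized cells (Cy5) against unarrested mid-log cells (Cy3). In the alpha factor course, 17 arrays followed 1 culture of BY4741 bar1- cells for 150 min after 3 h in alpha factor at 1 ug/ml, a mating pheromone that arrests MATa cells in G1; cells without BAR1 lack the protease that degrades it. In the cdc28 courses, BY4741 cdc28(ts) cells, named cdc28-13 in the series text, were held at 37 °C for 3 h, which inactivates the cyclin-dependent kinase Cdc28 and stops cells in G1, and were then cooled, to 22 °C in the sample labels and 25 °C in the series text. Of these, 16 arrays followed culture B for 225 min, and another 16 followed culture E for 160 min. Strain, arrest, temperature and culture cannot be told apart between the alpha factor and cdc28 courses, and each time of each culture has 1 array.

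Every value below is log2 of synchronized over mid-log cells, with the median of its array set to 0, so a level of 1 is a doubling over mid-log cells. Arrays held between 4189 and 6110 values. The 135 min array of culture B stood apart, with the fewest values and the widest spread of log ratios (SD 0.92). AGA1, a mating adhesin gene that pheromone induces, lay at 5.37 at 0 min after alpha factor, against 1.47 and -0.29 at 0 min in cdc28 cultures B and E. Of 4 pheromone genes, 3 were called higher after alpha factor in limma's comparison at 0 min, against 3.65% of 5586 features called in either direction; its alpha factor side is 1 array. The MATa genes BAR1 and STE2 have no value on any array of the alpha factor course. MFA1, which encodes the a-factor pheromone of MATa cells, lay at 3.03 at 0 min after alpha factor, against 1.96 and 2.22 in cultures B and E. Of the other MATa genes listed, AGA2 lay at 2.80, against 1.38 and 0.57. MFA2 lay at 0.81, against 0.53 and 1.37, so between the cdc28 cultures. STE6 lay at 0.10, against 0.08 and -0.57. Of 8 members, NCA3 lacked a value on 4 arrays of the alpha factor course and on the 135 min array of culture B, SUN4 on that same array, PIR3 at 15 min after alpha factor and SIM1 at 30 min in culture E. Oligonucleotide sequences were not used here, so cross-hybridization between paralogues was not tested.

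PIR1, PIR3 and HSP150 had similar profiles. After alpha factor each had a low stretch between 15 and 30 min, high values at 50 and 60 min, low values between 70 and 90 min and high values again at 110 and 120 min. PIR1, a wall protein required for wall stability, ranged from -3.51 at 15 min to 0.96 at 110 min after alpha factor, with a median of -1.19. In culture B it ranged from -3.12 at 45 min to 0.70 at 120 min (median -0.90), and in culture E from -2.83 at 70 min to 1.11 at 140 min (median -1.95). After alpha factor PIR1 was high on the 50 and 60 min arrays (0.59 and 0.77), low at 90 min (-2.49) and high again at 110 and 120 min (0.96 and 0.59). The second trough was shallower than the first, and PIR1 carried upward trends of 1.40 ± 0.21, 0.81 ± 0.12 and 1.48 ± 0.17 (SE) per 60 min in the alpha factor, B and E courses.

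PIR3, the neighbouring gene of the same family, ranged from -3.29 at 30 min to 1.32 at 60 min after alpha factor (median -0.64). Its range was -2.39 at 60 min to 0.75 at 120 min in culture B (median -0.38) and -1.44 at 70 min to 1.28 at 140 min in culture E (median -0.71). PIR3 was thus high and low on nearly the same arrays as PIR1. PIR1 had the higher ratio of the pair on 1 of the 16 alpha factor arrays that measured both, and on 3 and 2 of the 16 arrays of cultures B and E. These are log ratios and not levels per length, so they do not rank the transcripts by abundance.

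HSP150, a secreted PIR protein that heat shock is known to induce, ranged from -2.48 at 20 min to 1.32 at 60 min after alpha factor (median -0.34). It ranged from -2.04 at 60 min to 1.07 at 120 min in culture B (median -0.0036). In culture E the range was narrower, from -0.47 at 70 min to 1.16 at 130 min (median 0.35). At 0 min HSP150 lay at 1.31 after alpha factor, against 0.43 and 0.07 in cultures B and E, a difference of 1.05 ± 0.77 (SE). The part of the 37 °C arrest in this difference was not tested.

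CIS3, the fourth PIR gene, ran opposite to the other PIR genes after alpha factor and in culture B. In culture E its r was -0.0076 with PIR1, -0.09 with PIR3 and 0.0054 with HSP150 over 16 arrays, with time trends left in. After alpha factor it ranged from 0.05 at 50 min to 1.93 at 90 min (median 1.17), so that its lowest array came beside the 60 min array, the highest of PIR3 and HSP150. In culture B it ranged from -1.99 at 0 min to 1.43 at 45 min (median 0.63), with a second low value of -1.49 on the 135 min array that stood apart and -0.37 at 120 min. In culture E it ranged from -1.84 at 0 min to 1.59 at 70 min (median 0.66). It fell there from 1.43 at 90 min to 0.29 at 140 min, while PIR1 rose from -2.18 to 1.11. CIS3 was above the array median on all 17 alpha factor arrays.

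**Figure D1:**
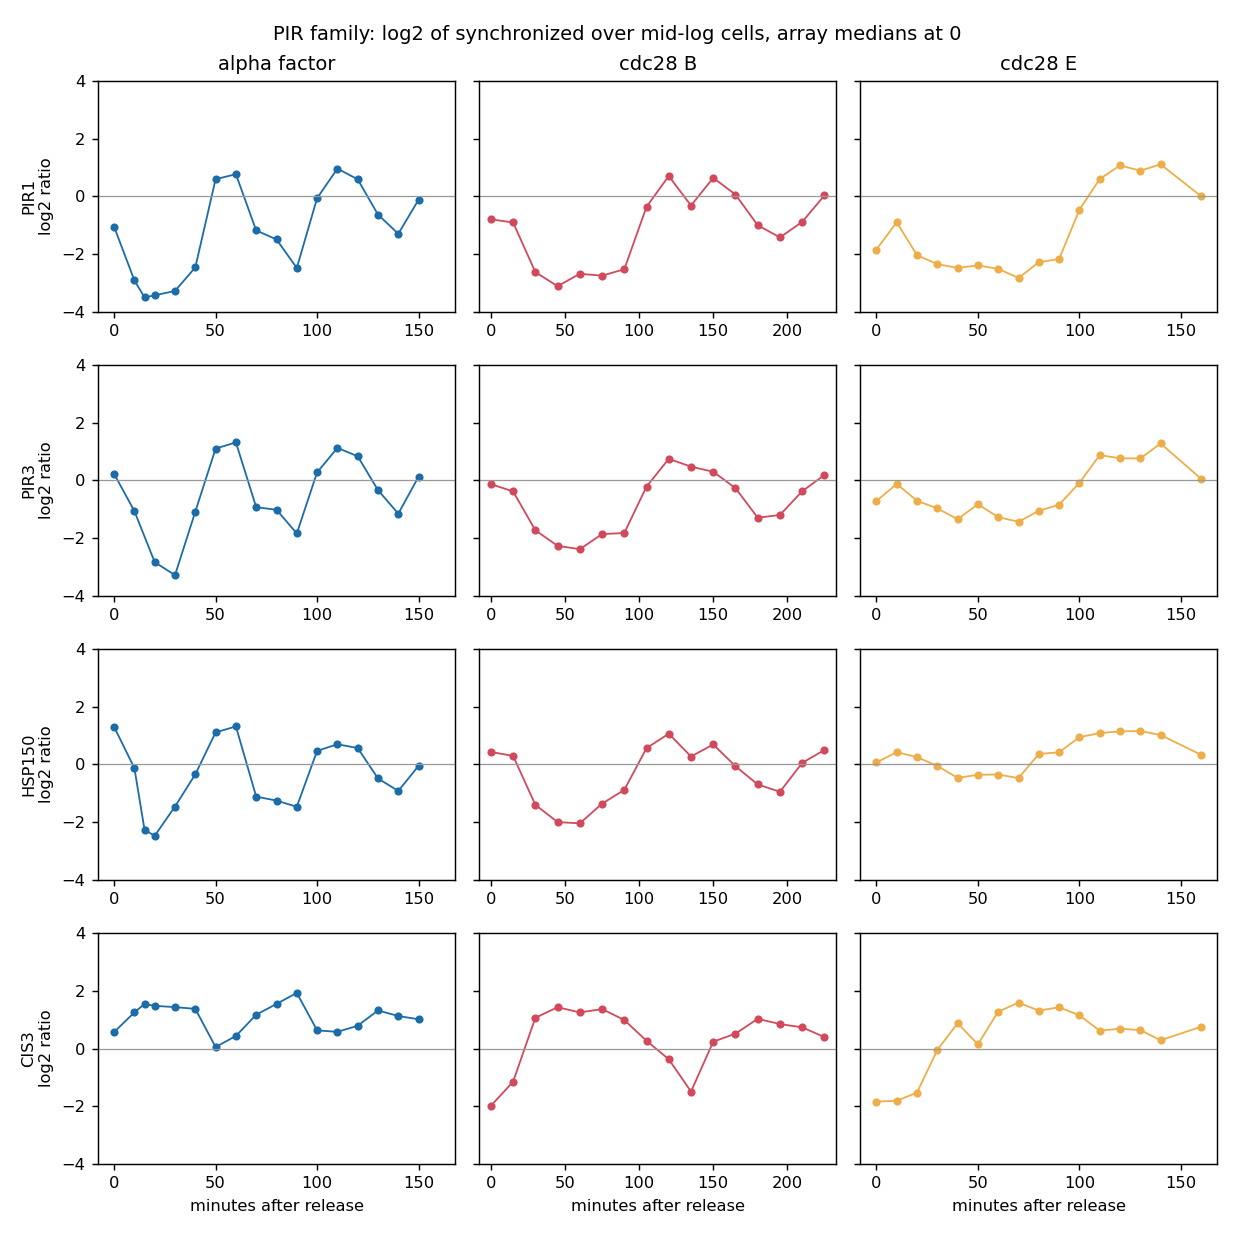
Log2 ratio of synchronized over mid-log cells (y axis) against minutes after release (x axis) for the PIR genes, with 1 row a gene and 1 column a course (alpha factor, cdc28 B, cdc28 E), and 1 point an array. PIR1, PIR3 and HSP150 turn up together, at 50 to 60 min after alpha factor and near 120 min in culture B, where CIS3 turns down.

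SIM1, a SUN gene, followed CIS3 and not its own paralogue. After alpha factor SIM1 ranged from -1.11 at 50 min to 0.93 at 80 min (median 0.47). In culture B it ranged from -2.15 at 0 min to 1.19 at 60 min (median -0.27), and in culture E from -2.81 at 0 min to 1.27 at 60 min (median 0.44). At 0 min both cdc28 cultures were far below mid-log cells (-2.15 and -2.81), whereas the alpha factor culture lay at 0.53.

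SUN4, the paralogue of SIM1 and a gene tied to septation, was low at 0 min in every course, at -3.11, -1.35 and -2.42 in the alpha factor, B and E cultures. The alpha factor value was among the lowest of its array, ranked 6076 of 6079 features from the top. The highest SUN4 value of the alpha factor course was 0.36 (120 min). That of culture B was -0.52 (165 min), and that of culture E 0.40 (10 min). It stayed below mid-log cells on all 15 arrays of culture B that measured it. Its fitted trends were 1.06 ± 0.18, 0.19 ± 0.10 and 0.54 ± 0.17 (SE) per 60 min in the alpha factor, B and E courses.

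UTH1, known from studies of yeast ageing and of the wall, ranged from -1.54 at 70 min to 2.06 at 0 min after alpha factor (median -0.48). Its later high arrays there were 50 min (1.51) and 100 min (1.16), each ahead of the highest array of PIR1 in the same cycle. In culture B it ranged from -1.91 at 165 min to 0.82 at 15 min (median -0.75). In culture E it ranged from -0.62 at 140 min to 1.91 at 10 min (median 0.17), with its 4 highest values between 10 and 40 min.

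NCA3, the paralogue of UTH1, was named for a role in the expression of mitochondrial ATP synthase subunits. It was highest at 0 min in all 3 courses, at 2.62, 2.67 and 3.52 in the alpha factor, B and E cultures. These values ranked 60 of 6079, 12 of 5637 and 6 of 6036 features from the top of their arrays. By 30 min NCA3 lay at -0.32 in culture B and 0.09 in culture E. From 30 min on, every measured value in culture B lay between -0.95 and -0.32. After alpha factor it had a second high value, 1.70 at 50 min, on the array where UTH1 was also high.

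**Figure D2:**
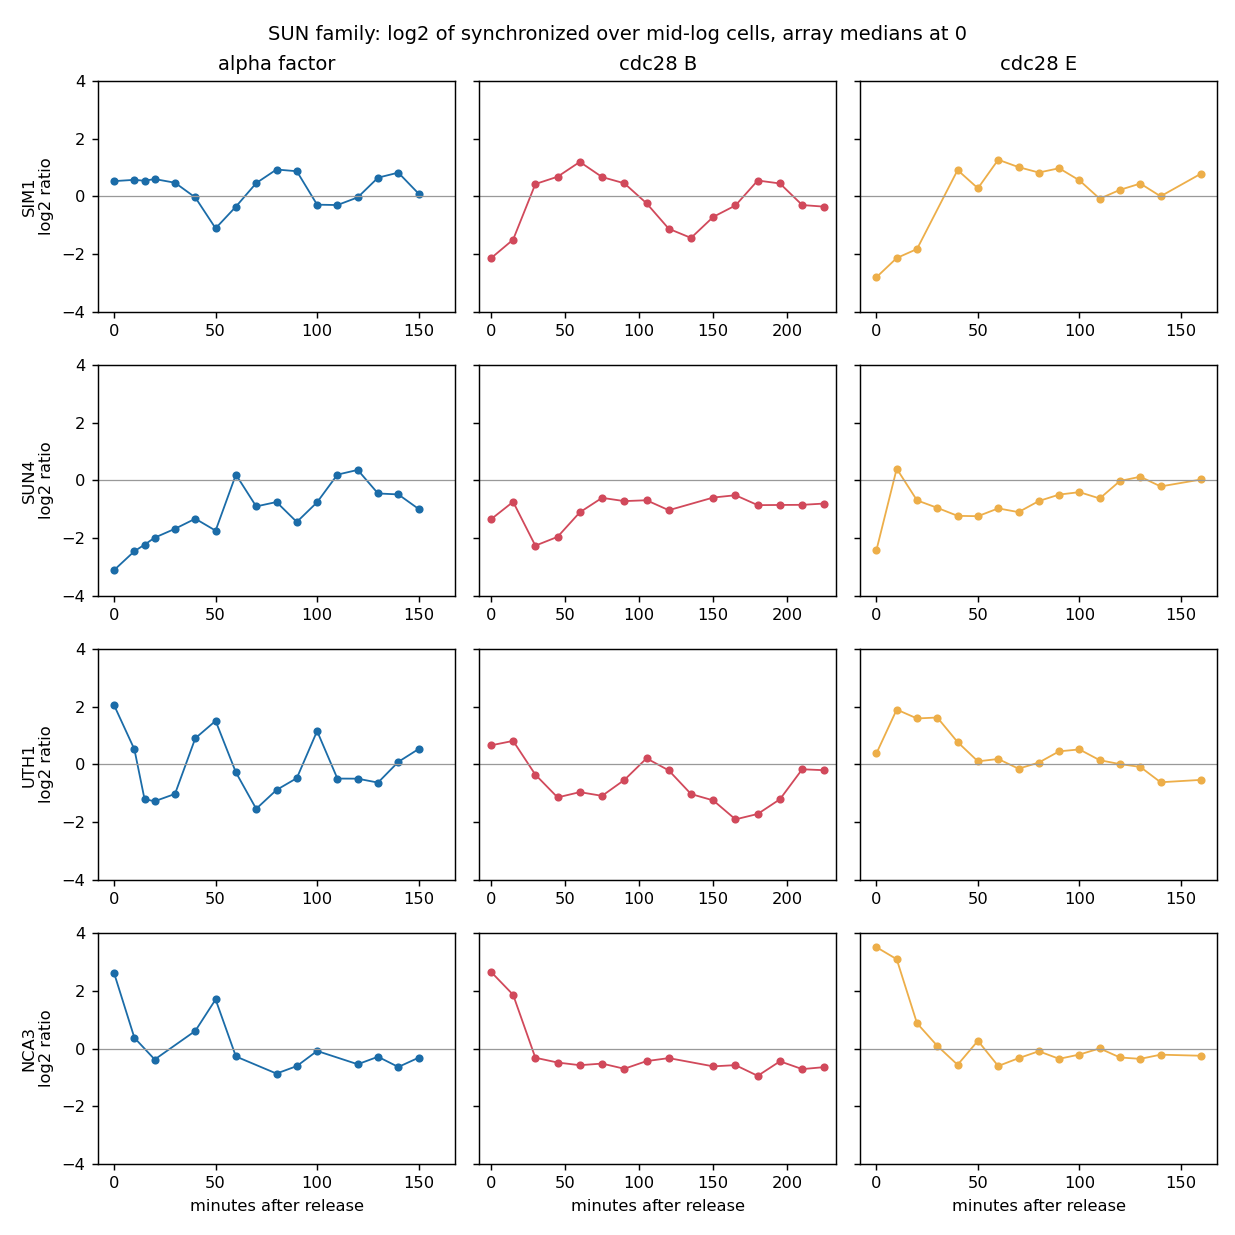
Log2 ratio of synchronized over mid-log cells (y axis) against minutes after release (x axis) for the SUN genes, with 1 row a gene and 1 column a course (alpha factor, cdc28 B, cdc28 E), and 1 point an array; lines join measured arrays. SIM1 starts low in both cdc28 cultures and not after alpha factor, SUN4 starts low and NCA3 starts high in all 3 courses.

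To describe how strongly each gene followed the cycle, a cosine and a sine with a linear time trend were fitted to each feature measured on 80% or more of a course's arrays. The periods, 54, 125 and 101 min for the alpha factor, B and E courses, came from lists of cell cycle markers that hold none of the 8 genes. Culture E covered 1.58 of its periods and culture B 1.8, so neither followed 2 full cycles. Periodic features are those with an adjusted p under 0.05 in limma's moderated F-test. After alpha factor 6 of 7 tested members were called, against 27.9% of all 5359 features; NCA3 had too few values. In culture B 6 of 8 were called, against 14.3% of 5598 features, and in culture E 3 of 8, against 4.64% of 5717 features. The median amplitude, the height of the fitted peak above the middle of the fitted curve, was 1.21, 1.22 and 0.70 over the members tested in the alpha factor, B and E courses, and 0.18, 0.17 and 0.14 over all features.

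PIR1, PIR3 and HSP150 were the 3 members called in every course. PIR3 had the largest amplitude of the tested members after alpha factor, 1.68 ± 0.18 (SE), and 1.31 ± 0.11 and 0.79 ± 0.13 in cultures B and E. PIR1 had 1.57 ± 0.23, 1.41 ± 0.19 and 1.24 ± 0.19 in the alpha factor, B and E courses. HSP150 had 1.47 ± 0.20, 1.25 ± 0.14 and 0.61 ± 0.07 in the same order. Their fitted peaks lay close to the turn of the period: at 3.08%, 3.39% and 99.2% of it for PIR1, PIR3 and HSP150 after alpha factor, and at 4.62%, 2.29% and 99.8% in culture B. In culture E these peaks lay at 17.3%, 17.5% and 10.4%.

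SIM1 and CIS3 were called after alpha factor and in culture B, with peaks on the opposite side of the cycle. SIM1 peaked at 47.5% of the period and CIS3 at 50.9% after alpha factor, with amplitudes of 0.59 ± 0.13 and 0.59 ± 0.10 (SE). In culture B they peaked at 52.1% and 51.8%, with amplitudes of 1.20 ± 0.16 and 1.23 ± 0.20. In culture E neither was called (amplitudes 0.92 ± 0.27 and 0.76 ± 0.26), and their fitted peaks lay at 64.4% and 69.2% of the period. UTH1 was called in the alpha factor course and in culture B, with amplitudes of 1.21 ± 0.19 and 0.82 ± 0.15 and peaks at 88.5% and 88.7% of the period, ahead of PIR1, PIR3 and HSP150. It was not called in culture E (0.40 ± 0.14).

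SUN4 and NCA3 were called in no course in which they were tested. SUN4 had amplitudes of 0.42 ± 0.20 (SE), 0.17 ± 0.15 and 0.32 ± 0.19 in the alpha factor, B and E courses. NCA3 had 0.66 ± 0.26 in culture B and 0.65 ± 0.29 in culture E. These fits describe single cultures, so their errors cover the scatter of arrays about 1 curve and not the spread between cultures.

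The count in culture E depended on single arrays and on the period. Without the 160 min array 5 members were called there, SIM1 and CIS3 being added, and without the 0 min array 4, UTH1 being added. With a period 10% shorter only UTH1 was called after alpha factor and only HSP150 in culture E, so that PIR1 and PIR3 lost their calls in both courses and HSP150 its call after alpha factor. With a period 10% longer UTH1 lost its calls after alpha factor and in culture B, with amplitudes of 0.93 and 0.65. SIM1 and CIS3 were then added in culture E. With no time trend none was called in culture E, and PIR1 was not called in the other courses. Without the 135 min array of culture B, 6 members were called there as before, and PIR1 had an amplitude of 1.59. From 30 min on, a restriction chosen after seeing the data, 7 members were called after alpha factor (SUN4 added), 6 in culture B and 4 in culture E (CIS3 added).

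**Figure D3:**
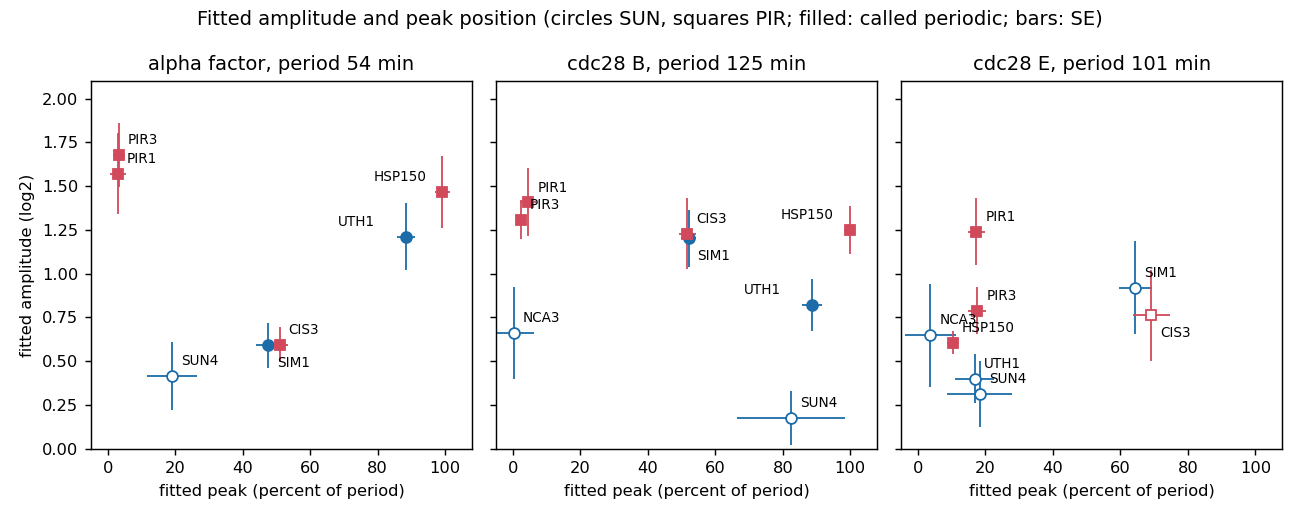
Fitted amplitude (y axis, log2) against fitted peak position (x axis, percent of the period) of each tested member in the alpha factor, cdc28 B and cdc28 E courses; circles are SUN genes, squares PIR genes, filled symbols called periodic, and bars 1 SE. PIR1, PIR3 and HSP150 lie near the turn of the period, and SIM1 and CIS3 near its middle after alpha factor and in culture B.

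Pairs of genes within each family differed in how far they moved together. SIM1 with SUN4 and UTH1 with NCA3 are the duplication pairs named above. PIR1 with PIR3 and HSP150 with CIS3 are pairs of neighbouring genes of the PIR family. Pearson's r over arrays is given as a description: times of 1 culture are not independent, and all arrays share the mid-log channel as their reference. PIR1 and PIR3 had r = 0.92 over 48 arrays, with 0.94, 0.95 and 0.98 within the alpha factor, B and E courses. UTH1 and NCA3 had r = 0.64 over 44 arrays, with 0.83, 0.69 and 0.47 in the same order. SIM1 and SUN4 had r = -0.04 over 47 arrays, with -0.26, -0.15 and 0.20. HSP150 and CIS3 had r = -0.47 over 49 arrays, with -0.87, -0.70 and 0.01. In culture B NCA3 was high only at 0 and 15 min (2.67 and 1.87), where UTH1 lay at 0.66 and 0.82. From 30 min on NCA3 stayed there between -0.95 and -0.32, while UTH1 ran from -1.91 to 0.21. The r of UTH1 and NCA3 without the early arrays was not computed.

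Across families, SIM1 and CIS3 had r = 0.93 over 48 arrays, with 0.82, 0.96 and 0.97 in the alpha factor, B and E courses. Within the PIR family, PIR3 and HSP150 had r = 0.90 over 48 arrays, and PIR1 and HSP150 had 0.79 over 49. SIM1 and NCA3, both SUN genes, had r = -0.73 over 43 arrays. SIM1 exceeded SUN4 by as much as 3.64 (at 0 min after alpha factor) and fell short of it by as much as 2.55 (10 min in culture E, a difference of -2.55). HSP150 minus CIS3 ran from -3.96 at 20 min to 1.06 at 50 min after alpha factor, and from -3.43 at 45 min to 2.42 at 0 min in culture B.

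**Figure D4:**
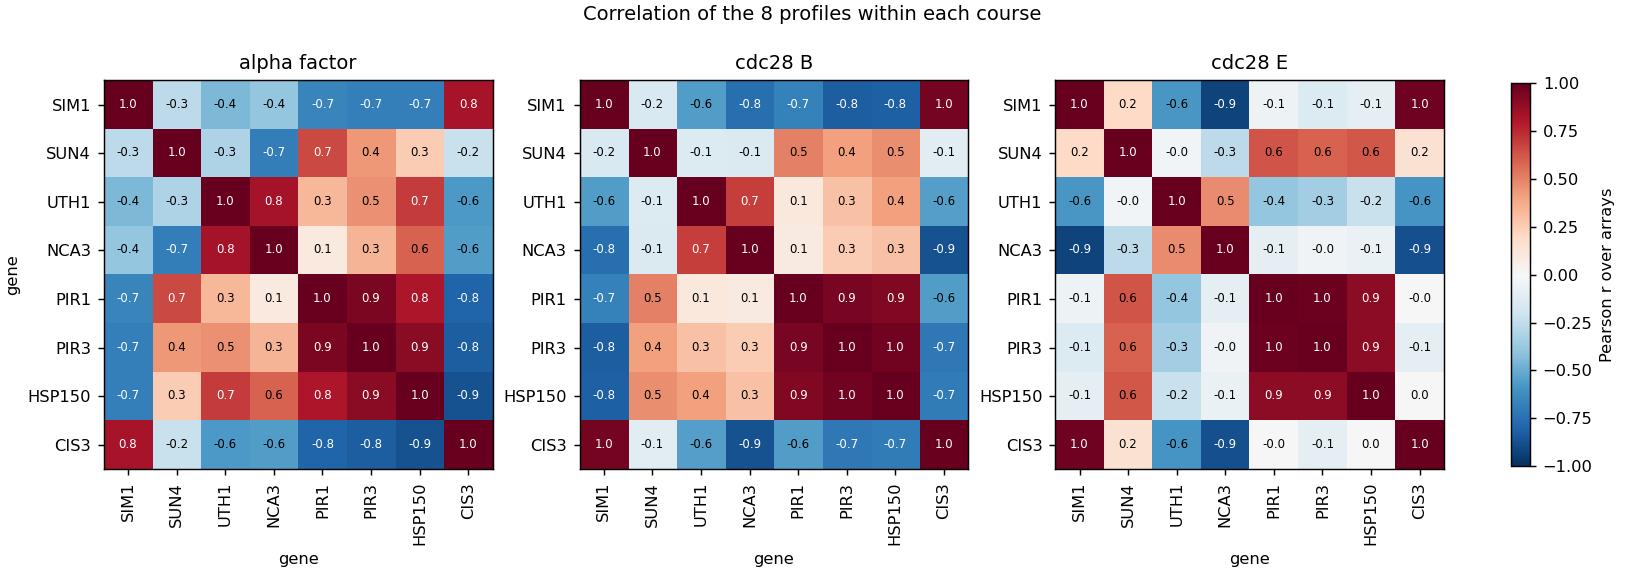
Pearson's r between the profiles of each pair of the 8 genes (both axes, gene names) within the alpha factor, cdc28 B and cdc28 E courses; red is positive and blue negative. PIR1, PIR3 and HSP150 form a positive block in each course, and SIM1 goes with CIS3.

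PIR1 (YKL164C) and PIR3 (YKL163W) are adjacent on chromosome XI and divergently transcribed, and HSP150 (YJL159W) and CIS3 (YJL158C) are adjacent on chromosome X and convergent, by the RefSeq gene table (assembly R64). Over 1080 adjacent divergent pairs on the arrays the median r was 0.20, and 0.833% had an r at or above that of PIR1 and PIR3. Over 1119 adjacent convergent pairs the median r was 0.13, and 5.72% had an r at or below that of HSP150 and CIS3. PIR5, a further PIR gene that lies divergently beside HSP150, was not one of the 8. PIR5 was called periodic in neither cdc28 culture and had too few values after alpha factor (12), with r = 0.21 to HSP150.

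The genes with the most similar profiles were sought among 5006 features measured on 80% or more of all 49 arrays. Closest to SIM1 were CIS3 (r = 0.93), TUB1 (0.93), which encodes alpha-tubulin, and HHO1 (0.86), which encodes the linker histone. Closest to CIS3 were SIM1 (0.93), MSB4 (0.88), a GTPase-activating protein gene, and WHI5 (0.88), a repressor of G1 transcription. PIR1 was closest to EGT2 (0.95), a gene of cell separation, PIR3 (0.92) and PCL9 (0.92), a Pho85 cyclin gene. PIR3 was closest to PIR1 (0.92), HSP150 (0.90) and ASH1 (0.89), the daughter-specific repressor of HO. HSP150 was closest to PIR3 (0.90), MSA1 (0.87), a G1 transcription coactivator gene, and OTU1 (0.84), a deubiquitylase gene.

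UTH1 was closest to SCW4 (r = 0.76), a wall glucanase gene, ARG80 (0.75) and TIP1 (0.73), a wall mannoprotein gene. NCA3 was closest to GPG1 (0.84), HSP10 (0.80), the mitochondrial co-chaperonin gene, and SPI1 (0.80), a wall protein gene. SUN4 was closest to SAP190 (0.81), PPN2 (0.74) and EGT2 (0.71). The paralogue of SIM1, SUN4, UTH1 and NCA3 was not among the 3 nearest of any of them.

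The cdc28 cultures allow each later time to be set against 0 min with both cultures as replicates. SIM1, CIS3 and NCA3 were the members called at 30, 60 and 90 min, at an adjusted p under 0.05 in limma. CIS3 lay at 1.07 and -0.05 at 30 min in cultures B and E, at 1.25 and 1.28 at 60 min and at 0.99 and 1.43 at 90 min, against -1.99 and -1.84 at 0 min. Each of these times has only 2 arrays. CIS3 rose by 2.42 ± 0.43 (SE), 3.18 ± 0.43 and 3.13 ± 0.43 at 30, 60 and 90 min. The SEs of these changes come from the fit without the culture as a replicate block, which takes the arrays of a culture as independent. Deviations of culture B from culture E correlated between times, with a median r of 0.55.

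SIM1 lay at 0.43 at 30 min in culture B, the only value of that time, at 1.19 and 1.27 at 60 min in cultures B and E and at 0.45 and 0.97 at 90 min, against -2.15 and -2.81 at 0 min. These are again at most 2 arrays a time. SIM1 rose by 2.91 ± 0.55 (SE), 3.71 ± 0.45 and 3.19 ± 0.45. NCA3 lay at -0.32 and 0.09 at 30 min, at -0.58 and -0.61 at 60 min and at -0.70 and -0.36 at 90 min, against 2.67 and 3.52 at 0 min. NCA3 fell, with differences of -3.21, -3.68 and -3.62 (SE 0.31 each).

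These 3 of 8 members stood beside 5.32% of 5568 features called at 30 min, 4.44% of 5591 at 60 min and 3.15% of 5591 at 90 min, all against 0 min and at an adjusted p under 0.05 in limma. The comparisons share the 0 min arrays and are not independent. At 120 min 3 of 8 were called, against 2.43% of 5590 features. PIR1 lay at 0.70 and 1.07 at 120 min in cultures B and E, against -0.80 and -1.85 at 0 min, and rose by 2.21 ± 0.35 (SE). CIS3 rose by 2.07 ± 0.43 and NCA3 fell by 3.41 (SE 0.31). SIM1 differed by 2.03 ± 0.45 and was not called, but was called with the culture as a replicate block, which gave 4 members at 120 min.

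The calls rested on few arrays. Without the 30 min array of culture B only NCA3 was called at 30 min, and without the 0 min array of culture E NCA3 and PIR1 were. Without the 60 min array of culture E only NCA3 was called at 60 min, and without the 0 min array of culture E NCA3, PIR1 and CIS3 were. Without the 0 min array of culture E NCA3 and CIS3 were called at 90 min. At 120 min only NCA3 was called without the 0 min or the 120 min array of culture E; NCA3 and PIR1 were called without the 0 min or the 60 min array of culture B or the 60 min array of culture E; and SIM1 was added without the 120 min array of culture B. NCA3 was called at each of these times without any one of the cdc28 arrays.

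The other members were not called at 30, 60 or 90 min. PIR1 differed from 0 min by -1.17 ± 0.35 (SE), -1.28 ± 0.35 and -1.03 ± 0.35 at these times, PIR3 by -0.93 ± 0.46, -1.41 ± 0.46 and -0.91 ± 0.46, and HSP150 by -0.98, -1.45 and -0.48 (SE 0.63 each). Culture B lay further below its 0 min array than culture E for these genes, except that HSP150 at 90 min went opposite ways, by -1.32 in culture B and 0.35 in culture E. UTH1 went opposite ways in the cultures at 30 min, at -0.35 in B and 1.63 in E, against 0.66 and 0.38 at 0 min. SUN4 did so too, at -2.27 in B and -0.95 in E, against -1.35 and -2.42 at 0 min.

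**Figure D5:**
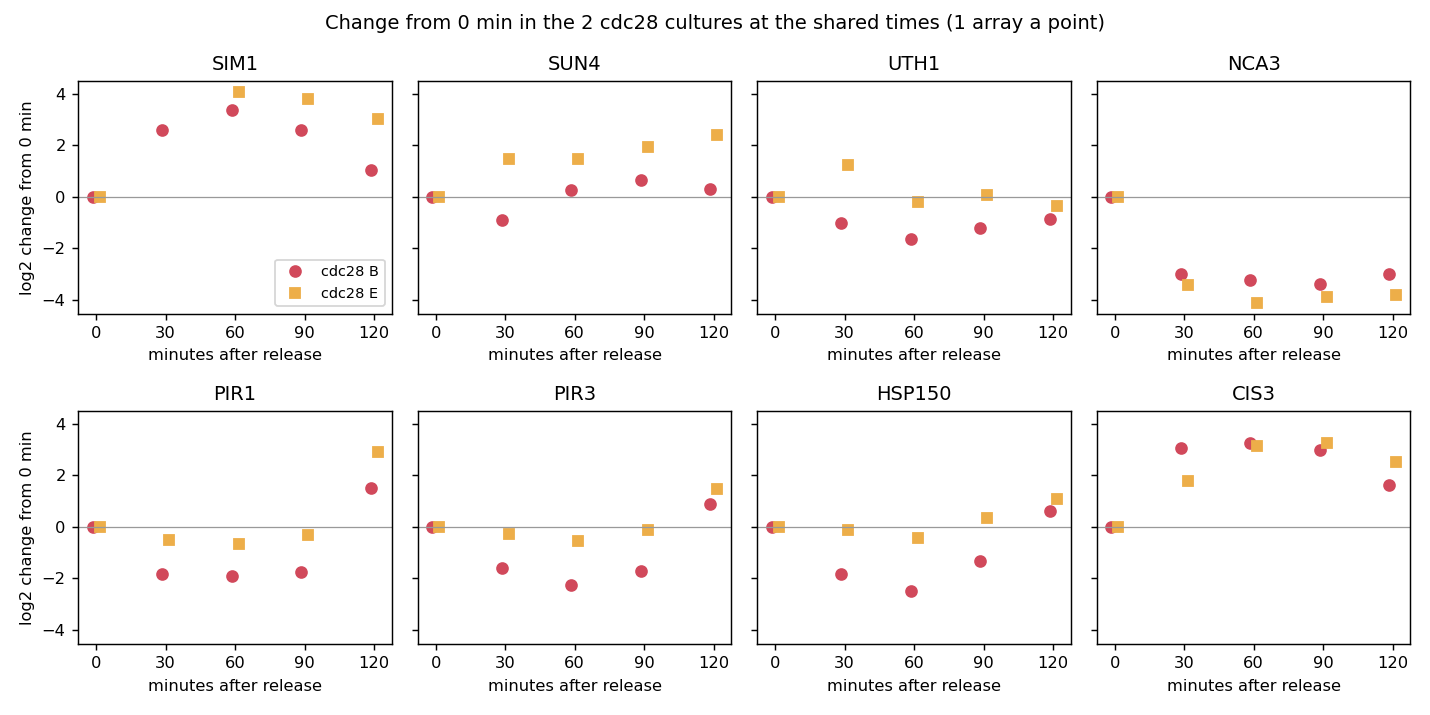
Log2 change from 0 min (y axis) against minutes after release (x axis) for each member in cdc28 culture B (circles) and culture E (squares), 1 array a point. At 30, 60, 90 and 120 min NCA3 lies between -4.12 and -2.99 in both cultures, while the measured values of SIM1 and CIS3 lie above 0.

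At 0 min the alpha factor array can be set against the cdc28 pair. SIM1 lay at 0.53 after alpha factor, against -2.15 and -2.81 in cdc28 cultures B and E, a difference of 3.01 ± 0.55 (SE). CIS3 lay at 0.57, against -1.99 and -1.84, a difference of 2.49 ± 0.52. These 2 of 8 members were called, against 3.65% of 5586 features. Neither was called without the 0 min array of either culture, without the 60 min array of either culture, or after quantile normalization. NCA3 lay at 2.62 after alpha factor, against 2.67 and 3.52, and was not called. The fit takes the spread of the lone alpha factor array to be that of the cdc28 pairs. The change to 30 min was set between the arrests: 0 of 7 tested members differed at an adjusted p under 0.05 in limma, and 0.198% of 5048 features did. At an unadjusted p under 0.05 the counts were 3 of 7 members and 10.8% of all features.

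Other wall genes were described in the same fits, with lists drawn up when earlier results were known. Of all features 27.9%, 14.3% and 4.64% were called periodic in the alpha factor, B and E courses. Of other covalently linked wall proteins 8 of 16, 10 of 17 and 5 of 17 were called in these courses. CWP1, a mannoprotein gene of the list, peaked at 27.4, 76.9 and 83.2 min in these courses, against 27.5, 64.7 and 69.9 min for CIS3. EGT2, also of the list, peaked at 4.75, 8.37 and 19.2 min, against 1.66, 5.77 and 17.5 min for PIR1. Of glucan remodelling genes 10 of 12, 8 of 12 and 2 of 12 were called, among them CRH1, a chitin-glucan crosslinking enzyme gene, with amplitudes of 1.45, 1.19 and 1.04, and GAS3 with 0.80, 1.01 and 0.53.

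Of reporters of the cell wall integrity pathway 5 of 11, 7 of 10 and 4 of 10 were called, beside 27.9%, 14.3% and 4.64% of all features. PST1 had amplitudes of 1.78, 1.43 and 1.30. Of heat shock chaperones 0 of 15 were called periodic in each course. At 30, 60, 90 and 120 min against 0 min in the cdc28 cultures, 8, 8, 7 and 5 of 15 fell, beside the 5.32%, 4.44%, 3.15% and 2.43% of all features called in either direction. The median differences over the list were -1.69, -1.52, -1.60 and -1.12, against 0.0016, -0.03, 0.02 and 0.0015 over all features. NCA3 fell at the same 4 times. The part of the temperature shift in the changes of NCA3, SIM1 and CIS3 was not tested.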

How the data were processed

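Per the labels, synchronized (Cy5) and mid-log (Cy3) messenger RNA were hybridized to oligonucleotide arrays. The authors deposited log ratios, read here as log2 with the direction of the dyes in the labels, since the table gives neither base nor direction nor centring. How spots were scanned, corrected and normalized is not given in the sources used. Of 6258 probes, 5570 carried 1 symbol, 688 none and 0 several; averaging probes of 29 genes left 6228 features. Locus tags were found for 5535 of 5540 named features. Array medians (-0.071 to 0.021) were set to 0. The number of arrays limits the precision.

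limma 3.58.1 in R 4.3.3 fitted every feature with values on at least 80% of arrays, with Benjamini-Hochberg adjustment over all of them. Contrasts used the 15 arrays at 0, 30, 60, 90 and 120 min with 1 mean for each of 10 groups; all 5 residual degrees of freedom come from the cdc28 pairs. The period was the value between 40 and 160 min that best fitted cell cycle markers with values on at least 80% of a course's arrays. Of 56 markers on the arrays, 52, 55 and 53 were used in the alpha factor, B and E courses. The fits were also run on simulated data with independent noise, without time trends or deviations shared within a culture. That run cannot show how the fits behave where such features are present. The members, lists and tests were chosen with earlier results of these data known. Named genes are the members, the 3 features nearest each by r, and examples among the 2 of each list with the largest amplitude. MFA1, MFA2, AGA2, STE6, BAR1, STE2 and PIR5 are named besides. The results of 1 list are not reported here.

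Culture letters B and E pair the cdc28 arrays, since each letter is 1 culture in the labels. Deviations of B from E correlated between times with a median r of 0.55 (-0.07 to 0.87 over 10 pairs of times). Alternatives covered centring, normalization, filters, trend, period, array letter, blocks and left-out arrays.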

Additional observations from a re-analysis of the deposited data

How the results depend on the processing

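Over 187 alternative counts of members called, 165 stayed within 1.5 times the reported count and 22 moved. Periodic calls after alpha factor moved to 1 with a period 10% shorter. In culture E they moved to 5 with a period 10% longer, 1 with one 10% shorter, 5 with a quadratic trend and 0 without any trend, and ran from 3 to 5 with single arrays left out; in culture B and after alpha factor they were 6 with any array left out. With quantile normalization the calls moved to 1 at 30 min against 0 min and to 0 between alpha factor and cdc28 at 0 min. With values required on every array they were 1 at 30, 60 and 90 min and 1 between arrests, because SIM1 and NCA3 each lack a value and were then not tested. With the array letter (T or B in the array names) as a covariate they were 6 at 30 min and 7 at 60 min. Leaving out single cdc28 arrays gave 1 to 3 at 30 min, 1 to 3 at 60 min, 2 to 3 at 90 min, 1 to 4 at 120 min and 0 to 2 between arrests at 0 min. With the culture as a replicate block, the paired fit, they were 3, 3, 3 and 4 at 30, 60, 90 and 120 min and 2 between arrests; over all features the block called 610, 580, 465 and 416, against 296, 248, 176 and 136 without it, and 777 against 204 between arrests. It changed no other call of a member.

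Of 647 alternative amplitudes, which have no sign, 624 kept their call or lack of one, 14 lost a call and 9 gained one. Of 786 alternative differences, 735 kept sign and call, 27 lost a call and 13 gained one. The other 11 differences changed sign, none of them past the threshold. At 30 min UTH1 was -0.43 and SUN4 -0.057 with the array letter; with arrays left out UTH1 ran from -0.88 to 1.11, at -0.03 without the 0 min array of culture E, and SUN4 from -0.38 to 0.94, at -0.26 without that array. HSP150 at 90 min ran from -1.14 to 0.17. Between arrests at 0 min PIR3, PIR1 and HSP150 were -0.068, -0.027 and -0.053 with the array letter, and PIR1 ran from -0.26 to 0.79 with arrays left out. The correlation of SIM1 and SUN4 was 0.0024 after quantile normalization. Where no construction is named, the cause was not tested.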

Other observations

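With array medians set to 0, PIR5 varied little beside its neighbour HSP150. It ranged from -0.43 to 0.36 over 12 arrays after alpha factor and from -0.15 to 0.43 over 16 arrays in culture E. In culture B it ranged from -0.56 to 2.68, but that highest value came from the 135 min array, which stood apart, and the next highest was 0.35.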
